A study of Mus musculus with 12 samples.

Results

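The synaptic vesicle and neurotransmitter release genes described here are 38 mouse genes, chosen by name for their role in filling, docking, fusing and retrieving transmitter vesicles. All 38 were found in the hippocampus table, which lists 14663 genes, and all 38 in the microglia table, which lists 29957. They comprise 8 synaptotagmins, 5 genes of the SNARE fusion complex and its inhibitor tomosyn, 8 genes of vesicle membrane proteins and synapsins, 11 genes of priming, the active zone and complexin, 4 genes of endocytosis and 2 vesicular glutamate transporters. RNA came from C57BL/6 mice with no genetic change named. Whole hippocampus was compared between 6 months (3 samples) and 18 months (3 samples), and hippocampal microglia between 3 months (3 samples) and 24 months (3 samples). The labels name no treatment. Nothing in them says that replicates were separate mice, and if they were not, the p-values reflect technical spread. They also do not give the sex of the mice or the way the microglia were isolated. Libraries were made from 5 ng of total RNA by oligo-dT priming and 12 cycles of PCR, and no molecular identifiers are named.

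A nerve terminal packs glutamate or another transmitter into vesicles, primes the vesicles at the active zone with RIM and Munc13 proteins, and fuses them through the SNARE proteins synaptobrevin, syntaxin and SNAP-25 when calcium binds a synaptotagmin. Dynamin, amphiphysin and synaptojanin then help to retrieve the membrane. In the hippocampus most of these genes are transcribed in neurons, while microglia use a partly different set of fusion proteins for secretion and endosomal traffic.

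Regulatory sequence is shown for 4 members on which the results below turn: Unc13b and Vamp1, whose means were lower at 18 months; Syn1, a neuronal gene that was nearly undetected in microglia; and Syngr1, the most abundant member in microglia. Each is the 250 bases before the annotated start, 5′ to 3′ on the gene's own strand, from RefSeq (GRCm38.p6). Capitals mark 4 motifs on either strand: the CCAAT box (CCAAT or ATTGG), the GC box (GGGCGG or CCGCCC), the cyclic AMP response element (TGACGTCA) and the first part of the RE1 element (TTCAGCACC or GGTGCTGAA), the site of the neuronal silencer REST. The marked motifs do not overlap one another.

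Unc13b: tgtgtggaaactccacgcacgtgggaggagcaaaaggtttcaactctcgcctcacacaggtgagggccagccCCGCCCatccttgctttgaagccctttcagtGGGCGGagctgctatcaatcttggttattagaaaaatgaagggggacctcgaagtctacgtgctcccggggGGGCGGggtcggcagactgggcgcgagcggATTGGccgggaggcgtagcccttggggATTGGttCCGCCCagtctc

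Vamp1: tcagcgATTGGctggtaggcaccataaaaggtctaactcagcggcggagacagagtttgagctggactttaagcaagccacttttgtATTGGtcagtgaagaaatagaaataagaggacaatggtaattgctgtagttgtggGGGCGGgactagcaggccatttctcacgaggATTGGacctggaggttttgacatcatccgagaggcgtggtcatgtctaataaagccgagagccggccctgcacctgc

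Syn1: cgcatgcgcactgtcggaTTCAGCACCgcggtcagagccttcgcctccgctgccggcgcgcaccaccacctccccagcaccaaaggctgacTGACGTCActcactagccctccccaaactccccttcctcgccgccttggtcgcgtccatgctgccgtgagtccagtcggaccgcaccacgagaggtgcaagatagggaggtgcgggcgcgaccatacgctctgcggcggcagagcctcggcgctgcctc

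Syngr1: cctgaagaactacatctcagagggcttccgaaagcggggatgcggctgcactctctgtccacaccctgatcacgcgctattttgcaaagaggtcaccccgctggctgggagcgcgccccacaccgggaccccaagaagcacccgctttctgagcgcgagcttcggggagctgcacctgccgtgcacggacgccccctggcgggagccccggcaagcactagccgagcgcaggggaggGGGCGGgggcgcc

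The Unc13b window lies at chr4:43058703-43058952 on the plus strand and holds 2 CCAAT boxes and 4 GC boxes. The Vamp1 window lies at chr6:125215331-125215580 on the plus strand and holds 3 CCAAT boxes and 1 GC box. The Syn1 window lies at chrX:20920919-20921168 on the minus strand and holds 1 cyclic AMP response element and 1 RE1 part. The Syngr1 window lies at chr15:80091084-80091333 on the plus strand and holds 1 GC box. Among 32851 windows of the same length in the RefSeq table, 33.8% held a CCAAT box, 32.7% a GC box, 1.55% the cyclic AMP response element and 0.301% the RE1 part. Among the 44 windows of the members found in that table, 9 (20.5%) held a CCAAT box and 26 (59.1%) a GC box, and Syn1 alone held either of the other motifs. The motifs were picked after the expression values were seen, and a match describes letters in the window only.

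Several libraries stood apart by markers of other cells. In the hippocampus, where values are normalized counts, the summed level of 10 choroid plexus markers ranged from 143 to 11133 over the 6 libraries. Blood markers summed to 41.3 to 62.4 at 6 months and 104 to 330 at 18 months, mostly from globin genes. Oligodendrocyte precursor markers summed to 107 to 137 at 6 months and 35.9 to 95.7 at 18 months. Pan-neuronal markers summed to 7682 to 8235 at 6 months and 7517 to 7975 at 18 months, which overlap. Excitatory neuron markers summed to 11572 to 12765 and 12982 to 14544, which do not overlap, but most of that sum is Camk2a; the mean log2 level of the same 10 markers overlapped (7.76 to 8.16 against 8.04 to 8.13), and 7 of them had a higher fitted level and 3 a lower one. Microglial markers summed to 607 to 755 at 6 months and 823 to 867 at 18 months, which do not overlap either. In microglia, values are given in CPM (estimated counts scaled by the total over tested genes and edgeR's TMM factor). Microglial markers summed to 76091 to 80983 at 3 months and 56320 to 74033 at 24 months, so that every older library was below every younger one. Marker sums of some other cells were higher in every older library. Pan-neuronal markers were at 112 to 135 against 150 to 227, and endothelial markers at 23.5 to 45.7 against 51.9 to 140. Astrocyte markers were at 130.4 to 268 against 333 to 461, and most of that sum is Slc1a3. The mean log2 level of the endothelial markers overlapped (0.583 to 0.950 against 0.645 to 2.74). The sums of mature oligodendrocyte (172 to 201 against 178 to 264), excitatory neuron (13.3 to 63.3 against 26.3 to 117) and choroid plexus markers (2.14 to 30.9 against 3.28 to 3.90) overlapped as well. Blood markers reached 1632 in replicate 1 at 24 months against at most 54.8 in any other library. Most of that sum was S100a8 and S100a9 (12179 and 3016 estimated counts), genes of myeloid cells and not of red cells. The globin genes Hbb-bs, Hba-a1 and Hba-a2 had 128, 64.5 and 33.5 estimated counts in that library. Of the 19 pan-neuronal markers in the table, 3 (Tubb3, Nefh and Ina) were at 0 in all 6 libraries. The noncoding RNA Snhg11 (547 to 1403 estimated counts) and Rtn1 (133 to 517) were present in all 6 and held most of the sum, and the others had counts in some libraries. Whether these differences bear on the members was not tested beyond the values given with each result. In whole tissue, fewer cells of a type and less RNA per cell cannot be told apart.

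In the hippocampus, the release genes showed no change that passed the test at 18 months, and most of the abundant ones stayed close to their level at 6 months. Snap25, Syt1, Vamp2 and Syp, the fusion protein, calcium sensor and membrane proteins of most vesicles, had 18-month means of 94.7%, 111%, 99.9% and 97.7% of the 6-month means. The lowest relative levels were those of 2 rare priming genes, Rims2 at 12.2% and Unc13b at 25.7%. None of the 38 members reached an adjusted p of 0.05 in limma's test with Benjamini-Hochberg adjustment over 13491 genes, nor did any other gene tested (0% called). At an unadjusted p under 0.05, 3 members were lower (7.89%, against 3.24% of all genes tested) and 0 were higher (2.13% of all genes). The smallest adjusted p of a member was 0.877.

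The fitted log2 change (18 over 6 months, on log2 of the normalized count plus 1) was below 0 in 25 members (65.8%) against 52.8% of all genes, and its median was -0.07 for members and -0.04 for all genes. With 1 library left out, the median of the members ran from -0.10 to -0.01 and the number above 0 from 13 to 18. The SD between libraries of the members' median deviation was 0.0776. That SD is a spread of single libraries and not the error of a difference between ages. The lean of the members below 0 was not tested. In 4 members every library at 18 months lay below every library at 6 months (10.5%, against 5.93% of all genes): Rims2, Unc13b, Slc17a7 and Sv2b. In 2 members every library at 18 months lay above (5.26%, against 5.03%): Syt12 and Cplx2. The 95% interval of the change lay within 1.5-fold in either direction for 17 of 38 members (44.7%), against 6.27% of all genes tested. These 17 were Syt1, Syt5, Syt11, Vamp2, Snap25, Syp, Synpr, Syngr1, Sv2a, Sv2b, Syn1, Rab3a, Rph3a, Cplx1, Cplx2, Synj1 and Snap91. Intervals were wider for rare genes: the SE was 0.88 for Rims2 (mean normalized count 9.71) and 0.64 for Syt2 (28.8), against 0.12 for Snap25 (3485). The members were not compared with genes of like level, so the 2 shares do not show that release genes were more stable. The summed level of all members was 15684 to 16033 at 6 months and 14791 to 16441 at 18 months, and the ranges overlap. In the authors' deposited table, 0 of 38 members had an adjusted p under 0.05 (0.305% of genes with an adjusted p did), and the smallest member value was 0.275, for Rims2.

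**Figure D1:**
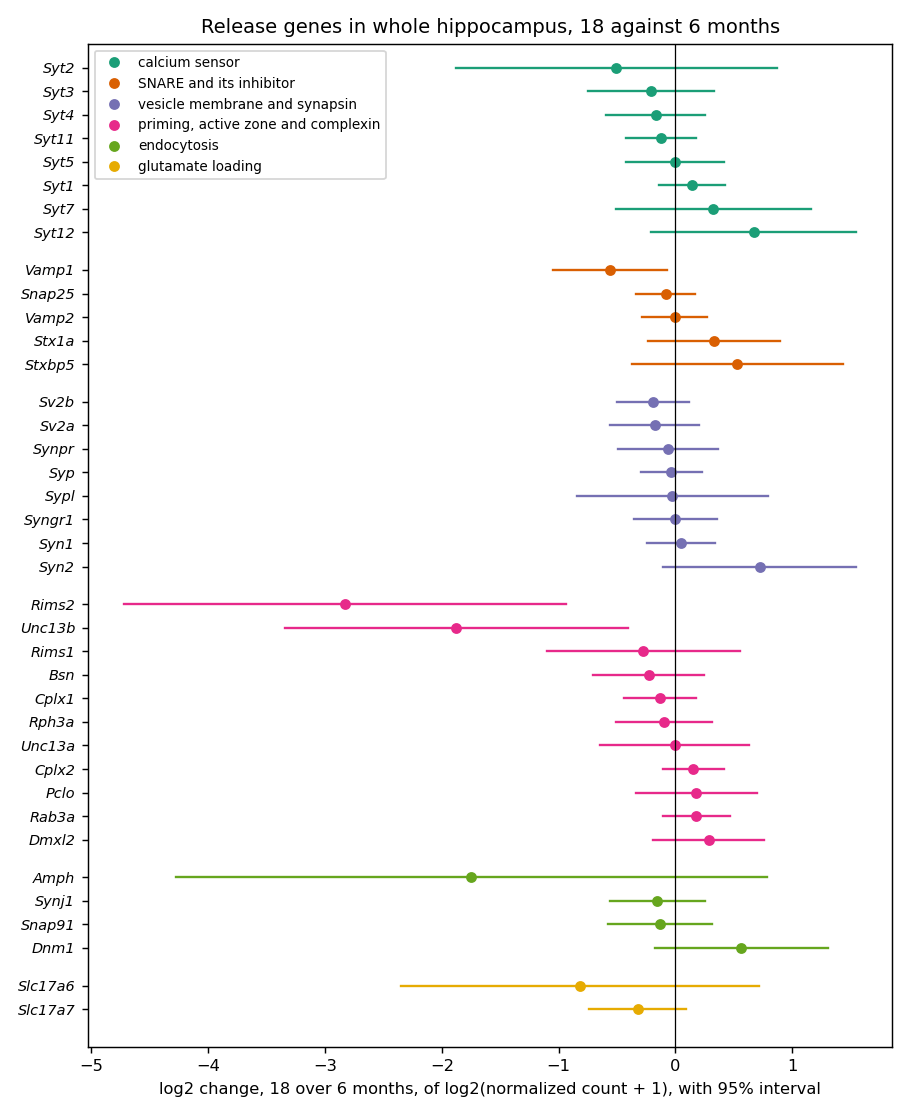
Log2 change in the hippocampus (18 over 6 months, horizontal axis) of the 38 release genes, ordered by role. Points are limma estimates from 3 against 3 libraries and bars are 95% intervals; Rims2 and Unc13b lie farthest below 0 with intervals that do not cross it, and Vamp1 is the other member whose interval does not.

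Among priming genes, Rims2 encodes a RIM scaffold that gathers calcium channels and primed vesicles at the release site. Its normalized counts were 15.0, 17.8 and 19.1 at 6 months and 0, 2.44 and 3.92 at 18 months. All 3 older libraries were far below all 3 younger ones. The means were 17.3 ± 2.11 and 2.12 ± 1.98 (SD, n = 3 each), and the log2 change was -2.83 ± 0.88 (SE; unadjusted p = 0.00630, adjusted p = 0.877, limma). The size depends on the pseudocount, at -3.25 with 0.5 and -1.68 with 5. These are shallow values: the commonest low value in a library, roughly the worth of 1 read, ranged from 0.52 to 1.8 normalized counts, so that the older libraries held approximately 0, 1.98 and 5.02 reads of Rims2. The library with no read of Rims2 had the fewest reads by this estimate, and replicate 2 at 6 months, with nearly as few, held approximately 9.94 reads of it.

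Unc13b encodes Munc13-2, which opens syntaxin so that vesicles become ready for fusion. Its normalized counts were 18.8, 36.5 and 26.1 at 6 months and 3.39, 10.5 and 7.12 at 18 months. Every older library was again below every younger one. The means were 27.2 ± 8.90 and 6.99 ± 3.54 (SD, n = 3 each), with a log2 change of -1.88 ± 0.69 (SE; unadjusted p = 0.0161, adjusted p = 0.877, limma). These values are shallow too. By the same rough estimate the older libraries held approximately 1.88, 8.51 and 9.13 reads of Unc13b and the younger ones 36.2, 20.4 and 41.5. The lowest was again in the library with the fewest reads. Unc13a, which encodes the more abundant Munc13-1, ranged from 88.2 to 189 at 6 months and from 92.1 to 146 at 18 months, with a log2 change of -0.01 ± 0.30.

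Rab3a, the vesicle GTPase that binds RIM and rabphilin, was at 678, 759 and 752 at 6 months and 741, 851 and 891 at 18 months. The groups overlapped, because the lowest older library fell between the younger ones, and the log2 change was 0.18 ± 0.13 (adjusted p = 0.917, limma). Cplx2, a complexin that clamps and then aids fusion, is described because its groups did not overlap, a choice made after its values were seen. It was at 899.7, 831 and 861 at 6 months and 977, 918 and 987 at 18 months. All 3 older libraries were above all 3 younger ones, and the log2 change was 0.15 ± 0.12 (adjusted p = 0.917, limma). The other members of the group, Rims1, Cplx1, Bsn, Pclo, Rph3a and Dmxl2, had log2 changes between -0.28 (Rims1) and 0.28 (Dmxl2), all with overlapping groups.

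Among SNARE genes, Vamp1 encodes synaptobrevin-1, a vesicle SNARE that is scarcer than synaptobrevin-2 (Vamp2) in most of the forebrain. Its normalized counts were 185, 206 and 156 at 6 months and 99.4, 116 and 159 at 18 months. Replicate 3 at 18 months lay just above replicate 3 at 6 months, so the groups overlapped. The means were 182 ± 25.0 and 125 ± 30.8 (SD, n = 3 each), and the log2 change was -0.56 ± 0.23 (unadjusted p = 0.0269, adjusted p = 0.877, limma). Stxbp5, which encodes tomosyn, an inhibitor of SNARE assembly, was at 48.8, 26.6 and 27.3 against 55.1, 30.3 and 65.8. Stx1a, the syntaxin of the plasma membrane, was at 91.3, 80.5 and 100.5 against 83.2, 116 and 153. Both had higher means at 18 months with overlapping groups, at log2 changes of 0.53 ± 0.42 and 0.33 ± 0.26 (adjusted p = 0.917 for each, limma). Snap25 and Vamp2, which were added for contrast after their values were seen, had log2 changes of -0.08 ± 0.12 and -0.01 ± 0.13. Snap25 was at 3815, 3520.2 and 3404 at 6 months and 3382, 3013 and 3777 at 18 months.

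Among synaptotagmins, Syt12, which lacks calcium binding, was at 35.9, 32.7 and 20.0 at 6 months and 61.5, 39.6 and 40.4 at 18 months. All older libraries were above all younger ones, by a small margin, and the log2 change was 0.67 ± 0.41 (adjusted p = 0.913, limma). Syt1, the sensor for fast synchronous release, was at 1503, 1427 and 1589 against 1429, 1924 and 1676. Syt11, a synaptotagmin found on endosomes and vesicles that does not bind calcium, was at 947, 1116 and 1016 against 796, 993 and 1049. Both overlapped between ages, with log2 changes of 0.15 ± 0.13 and -0.12 ± 0.14. The log2 changes of Syt2, Syt3, Syt4, Syt5 and Syt7 lay between -0.51 (Syt2) and 0.33 (Syt7), and their groups overlapped.

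Among vesicle membrane proteins and synapsins, Syn2, a synapsin that tethers reserve vesicles, was at 80.7, 36.1 and 42.5 at 6 months and 50.2, 118 and 95.4 at 18 months. The highest younger library lay above the lowest older one, and the log2 change was 0.72 ± 0.38 (adjusted p = 0.909, limma). Sv2b, a glycoprotein of the vesicle membrane, was at 546, 539 and 531 against 472, 424 and 526. The groups did not overlap but nearly met, and the log2 change was -0.19 ± 0.14 (adjusted p = 0.917, limma). Sv2a, its paralog and the binding site of levetiracetam, was at 272, 318 and 255 against 247, 285 and 217, which overlap. Syp, Sypl, Synpr, Syngr1 and Syn1 had log2 changes between -0.06 (Synpr) and 0.05 (Syn1).

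For endocytosis, Dnm1, the neuronal dynamin that cuts vesicles from the membrane, was at 182, 103 and 278 at 6 months and 179, 429 and 222 at 18 months. Amph, which encodes amphiphysin, a partner that brings dynamin to the neck of the bud, was at 51.4, 91.7 and 28.5 against 0, 70.5 and 51.9. Synj1, the lipid phosphatase that uncoats vesicles, was at 387, 361 and 308 against 385, 241 and 336. All 3 overlapped between ages. The change of Amph (-1.75 ± 1.18 on the log2 scale) rested on the library at 0, replicate 1 at 18 months, and was 0.23 without it. Snap91, the clathrin adaptor AP180, had a log2 change of -0.13 ± 0.21. No strand-specific step is named, so reads of the 11 members whose exons overlap a gene on the other strand cannot be told apart from that gene's. These are Syt4, Syt7, Syt12, Syp, Sv2b, Syn1, Syn2, Rab3a, Unc13a, Pclo and Synj1. The limit applies to their values in both tissues.

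For glutamate loading, Slc17a7 encodes VGLUT1, the transporter of most hippocampal glutamate neurons. It was at 173, 166 and 160.4 at 6 months and 124, 139 and 137 at 18 months. All older libraries were below all younger ones, at 80.0% of the 6-month mean, and the log2 change was -0.32 ± 0.19 (adjusted p = 0.913, limma). The excitatory neuron markers given above were not lower on average, and their part in this result was not tested. Slc17a6, which encodes VGLUT2, common in thalamic and other subcortical inputs, was at 20.7, 64.6 and 22.7 against 23.3, 4.89 and 41.8, which overlap.

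**Figure D2:**
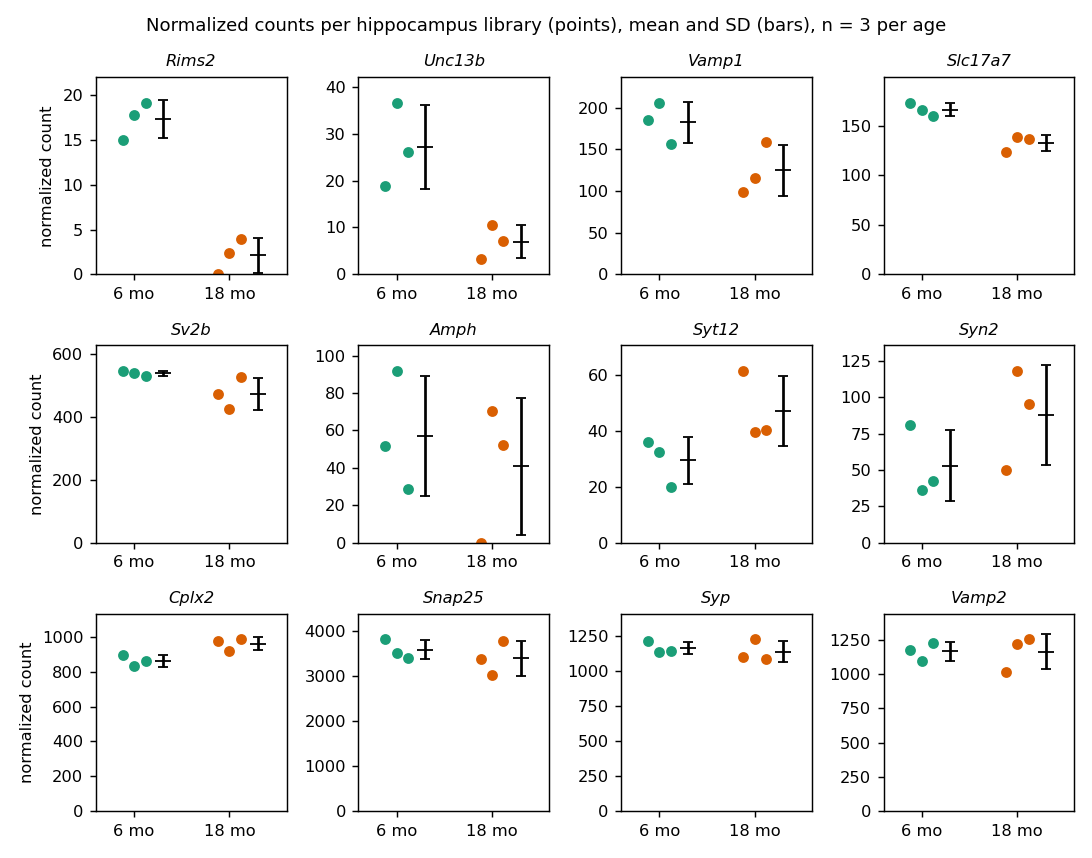
Normalized counts (vertical axes, each with its own range) of 12 release genes in the 6 hippocampus libraries, by age. Each point is a library and bars are mean ± SD (n = 3); Rims2 and Unc13b separate by age, Vamp1 overlaps in 1 library, and Snap25, Syp and Vamp2 overlap broadly.

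Related genes were also compared as a ratio within each library, taken of the normalized count plus 1. For abundant genes this ratio hardly depends on scaling between libraries, but for rare ones the added 1 matters, and in the library where Rims2 is at 0 it sets the value. Of 10 paralog pairs, 3 had ratios that did not overlap between ages, each with an exact two-sided permutation p of 0.1, the smallest that 3 against 3 samples allow, and an adjusted p of 0.333 over the 10 pairs. For any pair, 0.1 is also the share of sample splits that separate the ages fully. The numerators of these 3 pairs, Rims2, Unc13b and Vamp1, are the 3 members already given as lower at an unadjusted p under 0.05 by limma. The ratios thus rest on the same values and are not separate evidence. The Rims2 to Rims1 ratio was 0.333 at 6 months and 0.0568 at 18 months (geometric means), a difference of -2.55 on the log2 scale, which was -2.97 with a pseudocount of 0.5 and -1.43 with 5. The Unc13b to Unc13a ratio was 0.231 and 0.0631, a difference of -1.87. The Vamp1 to Vamp2 ratio was 0.156 and 0.106, a difference of -0.56, and the nearest libraries of the 2 ages all but touched at a log2 ratio of -2.97. The Syn2 to Syn1, Cplx1 to Cplx2, Pclo to Bsn, Syt2 to Syt1, Slc17a6 to Slc17a7, Sv2b to Sv2a and Sypl to Syp ratios overlapped, with exact permutation p from 0.2 to 1.

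**Figure D3:**
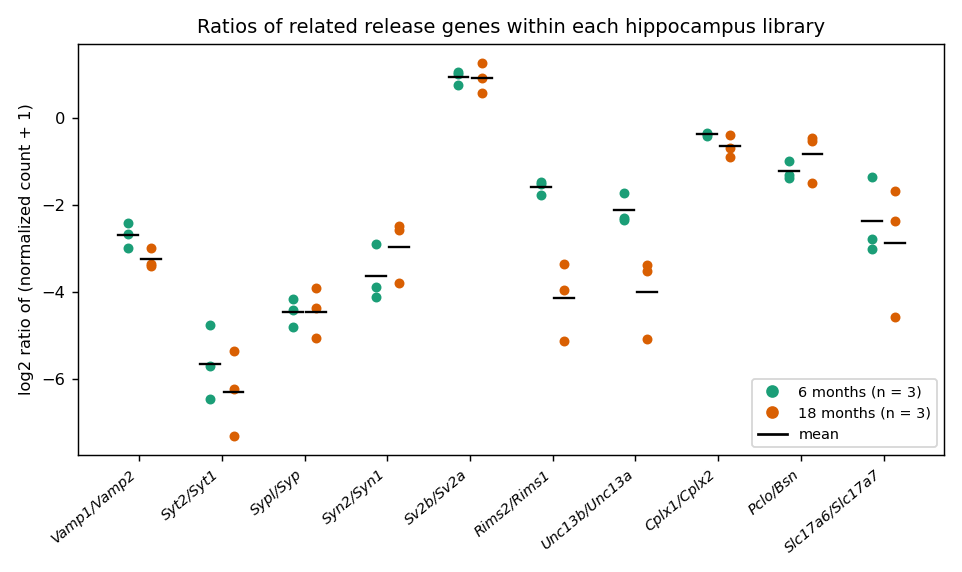
Log2 ratio of the normalized count plus 1 for 10 pairs of related release genes in each of the 6 hippocampus libraries (vertical axis), by age. Points are libraries and bars are means; the ratios of Rims2 to Rims1 and Unc13b to Unc13a are lower in all 3 libraries at 18 months.

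Other genes of the vesicle cycle, a list of 81, gave 76 tested genes in the hippocampus. By limma 0 were called (0% of all genes). At an unadjusted p under 0.05, 2 of the 76 were higher, against 2.13% of all genes, and 4 lower, against 3.24%. The median log2 change was -0.05, against -0.04 for all genes. The 6 with the smallest p were Ppfia3 (liprin-alpha-3, an active zone scaffold), Cacna1b (the N-type calcium channel pore), Rab3c (a vesicle GTPase) and Sh3gl2 (endophilin A1), which had lower means, and Dnm2 (the widely expressed dynamin) and Scamp1 (a vesicle membrane protein), which had higher ones. Cacna1b was at 99.8, 107 and 64.0 at 6 months and 24.1, 71.7 and 32.6 at 18 months, overlapping in 1 library. Ppfia3 was at 74.6, 50.2 and 30.9 against 0, 50.3 and 0. Scamp1 was at 334, 296 and 274 against 373, 405 and 410.3, which do not overlap.

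In microglia, most release genes were rare, and no difference between 3 and 24 months passed the test. By TPM, a share of transcripts scaled by gene length so that genes can be compared, the synaptogyrin gene Syngr1 stood first at 512 to 910.2 TPM over the 6 libraries. The synaptophysin-like gene Sypl followed at 33.2 to 156, then Vamp2 at 34.3 to 151, Rab3a at 6.86 to 25.2, Synj1 at 7.45 to 41.5, Syt11 at 2.41 to 40.1 and Vamp1 at 1.89 to 20.8. In this order by median, Syngr1 lay above all other members in every library. Sypl and Vamp2 overlapped each other and lay above the range of Rab3a, and from Rab3a to Vamp1 each neighbour overlapped the next. Syngr1 alone held 35.0% to 57.7% of the members' estimated counts, and Syngr1, Sypl, Vamp2, Synj1 and Syt11 together 83.3% to 94.0%.

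Many members were at 0 in some or all libraries. After rounding, 9 had no count in any of the 6 libraries: Syt4, Synpr, Sv2b, Syn2, Rph3a, Rims2, Cplx1, Amph and Slc17a7. A count of 0 allows up to 3 counts, or 0.211 to 0.372 CPM by library total at these depths (8068020 to 14217100 estimated counts per library). This limit covers counting error only, and not reads that were left unassigned to a gene. Some of the other vesicle cycle genes were also at 0 in all 6 libraries, among them the clathrin adaptor gene Picalm. Whether such zeros mean absent RNA was not tested. A further 16 had counts in 1 to 5 libraries, and 13 in all 6. Syt1 was at 0 in all young libraries and at 7, 65 and 0 counts at 24 months. Snap25, added after its values were seen, was at 0, 0 and 2 counts at 3 months and 0, 99 and 60 at 24 months. The pan-neuronal markers did not share one pattern. Elavl4 had 1, 108 and 51 counts in the older libraries and at most 1 in any younger one, and Uchl1 had 0, 32 and 2 against none. Rbfox3 had 4, 4 and 43 counts in the older libraries and none in the younger ones. Replicate 2 at 24 months alone held counts of Stmn3 (14) and Nefl (2), and most of those of Nefm (19). Elavl3 had 3, 4 and 0 counts against 9, 6 and 7, and Mapt 2, 0 and 3 against 3, 10 and 4. Celf4 had 135, 0 and 0 counts against 115, 11 and 26. Stmn2 had 2 counts in replicate 3 at 3 months and none elsewhere. Thy1 had 89 counts in replicate 1 at 3 months and none in any other library. Map2 had 0, 75 and 43 counts at 3 months and 0, 25 and 1 at 24 months. Eno2 was highest in replicate 1 at 24 months (111 counts) and Gap43 in replicate 3 at 3 months (66 counts). The mean log2 level of the 19 markers was 0.867 to 0.897 at 3 months and 1.18, 1.37 and 1.19 at 24 months, and its part in these counts was not tested. Syt5 had 20 counts in replicate 2 at 24 months and none elsewhere, and Dnm1 had 3 counts in that library alone. That library also had the highest endothelial marker sum (140 CPM, against 23.5 to 66.5 in the others). Its astrocyte marker sum (461 CPM, against 130.4 to 346) and its mean log2 level of pan-neuronal markers (1.37) were the highest too. The part of these markers in the counts of Syt5 and Dnm1 was not tested. Slc17a6 had 29 counts in replicate 2 at 3 months and none elsewhere, and Syn1 had 1 count in replicate 3 at 3 months. Snap91, also too low to test, had 1, 1 and 0 counts at 3 months and 5, 7 and 3 at 24 months.

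**Figure D4:**
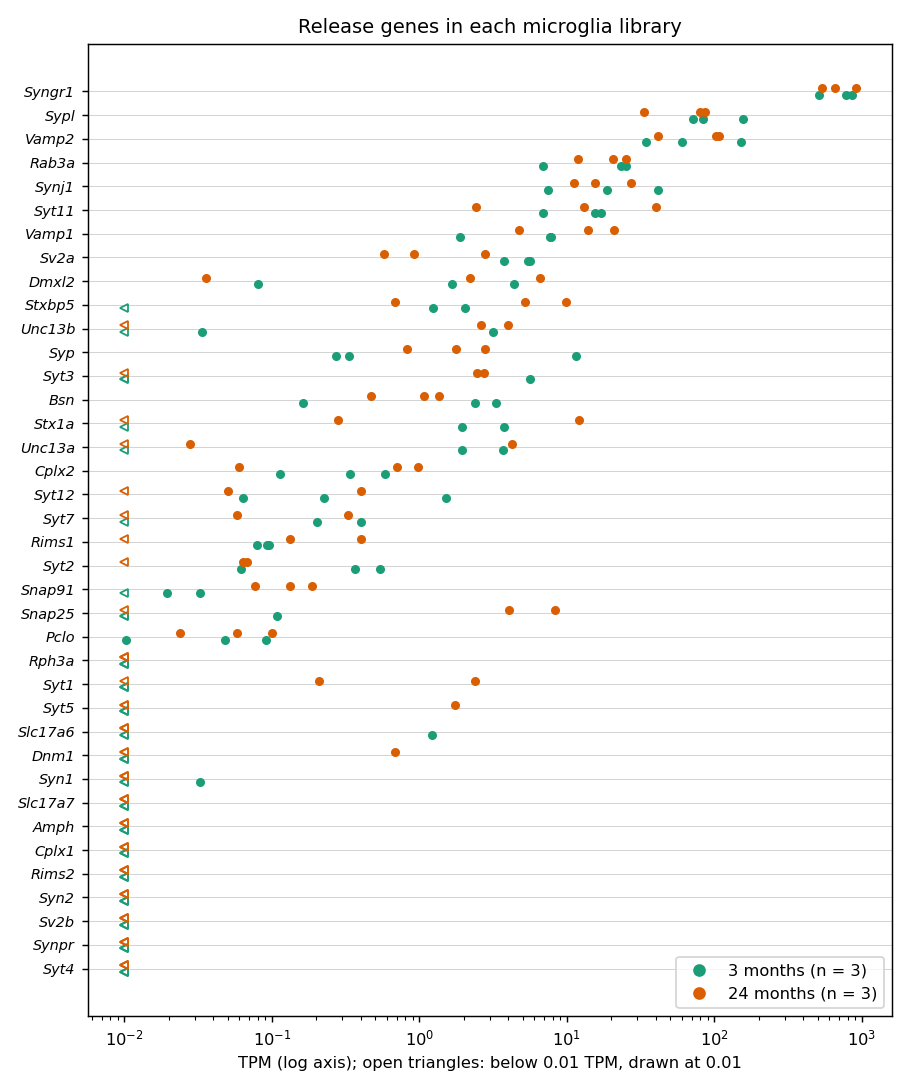
Level of each release gene in the 6 microglia libraries in TPM (logarithmic axis), by age, with values under 0.01 drawn as triangles at the edge. Each symbol is a library; Syngr1 lies above all other members in every library, and 9 genes have no count in any library.

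Of the 38 members, 17 passed the filter on low counts and could be tested. By edgeR's quasi-likelihood test 0 of 17 were called (0% of 10663 genes), and 0 had an unadjusted p under 0.05 (5.53% of all genes); DESeq2's Wald test called 0 of the members (1.33% of genes) and also gave 0 under 0.05 before adjustment. In the authors' deposited table none of the 21 members with an adjusted p were under 0.05, against 2.01% of genes, and the smallest value was 0.225, for Snap25. Before adjustment, 2 members were under 0.05 in the authors' deposited table, Snap25 (p = 0.0111) and Sv2a (p = 0.0186). The share of all genes under 0.05 before adjustment is not given for that table. Whether 2 members is more than that share is therefore not known. The fitted log2 change (24 over 3 months) was above 0 in 9 of 17 members, against 50.5% of all genes, with a median of 0.09 for these members and 0.01 for all genes. The genes that passed need not stand for all 38.

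Sv2a was the tested member with the smallest p and the only tested one whose groups did not overlap (6.16% of all genes were lower without overlap and 7.26% higher). It was at 11.6, 17.3 and 15.7 CPM at 3 months and 2.96, 8.51 and 1.71 CPM at 24 months. Every old library was below every young one, at a log2 change of -1.76 ± 1.09 (approximate SE from the test statistic, adjusted p = 0.973, edgeR). Vamp1 was at 4.08, 15.2 and 13.2 CPM against 45.8, 9.37 and 25.5 CPM, with a log2 change of 1.31 ± 0.96. Stxbp5 was at 0, 7.48 and 3.61 CPM against 1.16, 25.2 and 14.5 CPM. Stx1a was at 0, 5.61 and 2.72 CPM against 18.7, 0.403 and 0 CPM. These 3 SNARE-related genes overlapped between ages and spread widely within each age.

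Syngr1, which led by level, was at 281, 472 and 421 CPM at 3 months and 344, 277 and 448 CPM at 24 months, overlapping, with a log2 change of -0.13 ± 0.27. Sypl was at 223, 121 and 93.5 CPM against 50.6, 123 and 123 CPM. Syp, the neuronal synaptophysin, was at 21.0, 0.625 and 0.477 CPM against 5.29, 1.53 and 3.13 CPM, with replicate 1 the highest at each age. Syt11 was at 37.9, 17.0 and 32.4 CPM against 85.2, 7.74 and 30.3 CPM. Syt3 was at 0, 0 and 7.97 CPM against 0, 3.43 and 4.56 CPM. Both synaptotagmins overlapped between ages.

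Among priming genes, Bsn, which encodes the active zone scaffold bassoon, was at 0.879, 23.9 and 22.0 CPM against 2.66, 7.22 and 8.04 CPM. Unc13b was at 0.154, 11.7 and 0 CPM against 0, 8.23 and 16.5 CPM. Cplx2 was at 0.402, 1.19 and 1.90 CPM against 2.59, 3.39 and 0.203 CPM. All 3 overlapped, and Unc13b, lower in the older hippocampus, was at 0 counts in 1 library of each microglial age. Synj1 was at 108, 39.2 and 22.1 CPM against 26.8, 67.3 and 25.9 CPM, with a log2 change of -0.50 ± 0.70. The other tested members, Vamp2, Rab3a, Unc13a and Dmxl2, had log2 changes between -0.67 (Unc13a) and 0.62 (Dmxl2). The value of Unc13a was -5.81 without replicate 3 at 24 months and -0.0884 without replicate 2 at that age. Of the other vesicle cycle genes 43 were tested, 0 were called by edgeR and 0 had an unadjusted p under 0.05, and the median log2 change was 0.03. The 6 with the smallest p were Atp6v1h, a subunit of the vesicle proton pump, Sh3gl2, Scamp5, the clathrin chains Clta and Cltc, and Dnm3. Atp6v1h was at 49.3, 59.2 and 68.0 CPM against 106, 70.8 and 124 CPM, which do not overlap (adjusted p = 0.898, edgeR).

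The 2 tissues were normalized separately, so their levels are only set side by side, with no test, in CPM of the whole library total (without the TMM factor used above). For 33 of 38 members every microglia library lay below every hippocampus library. The 5 exceptions were Sypl, Syngr1, Unc13b, Rims2 and Amph, the last 2 because a hippocampus library was at 0. Syngr1 ranged from 302 to 400.0 CPM in hippocampus and from 271 to 469 in microglia. Sypl ranged from 32.6 to 82.8 in hippocampus and from 49.3 to 215 in microglia. Snap25 ranged from 3093 to 3809 in hippocampus and from 0 to 9.87 in microglia.

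**Figure D5:**
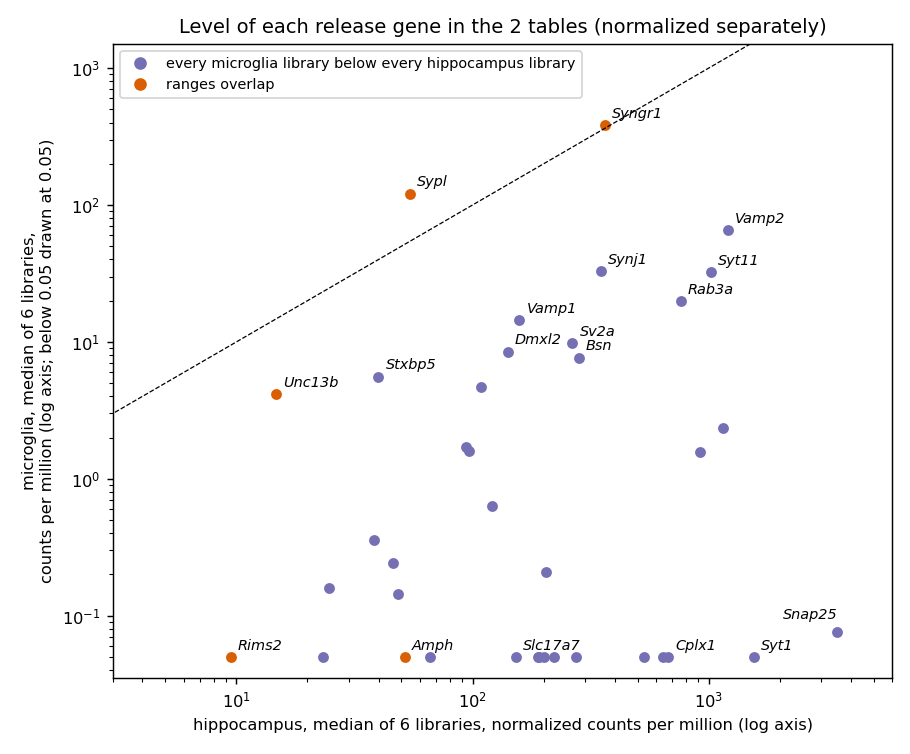
Median level in CPM of each release gene in hippocampus (horizontal axis) and microglia (vertical axis), over 6 libraries each, on logarithmic axes with a dashed line of equal level. Syngr1 and Sypl lie above the line and the other members below it.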

How the data were processed

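RNA was measured in 12 libraries. Per the submitters' processing notes, kallisto, DESeq and DESeq2 were used and the builds GRCm39 and mm10 are named, without versions or roles. For the hippocampus the authors deposited normalized counts per gene (a scaled signal, not whole reads) with their own log2 fold changes, Wald statistics (a score), p-values and adjusted p-values. For microglia the authors deposited TPM, estimated counts and effective lengths (in bases) per gene, with a second table of log2 fold changes, scores and p-values. The deposited hippocampal log2 fold changes are 6 over 18 months and were turned in sign.

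Hippocampal values were tested with limma 3.58.1 (mean trend) on log2(value + 1) over the 13491 genes that reached 1 in 3 or more libraries. Microglial estimated counts were rounded and tested with edgeR 4.0.16 (quasi-likelihood, TMM, filterByExpr, 10663 genes), with DESeq2 1.42.0 as an alternative (R 4.3.3). The edgeR test gives no SE, so each ± on a microglial log2 change is its absolute value divided by the square root of the test's F statistic. P-values are two-sided, adjusted by Benjamini-Hochberg over all tested genes, with a threshold of 0.05. Each fit was tried on simulated data with a fixed spread for all genes and changes placed only in genes above a set level. That trial does not speak to rarer or noisier members. An entry with no gene name, 0.0233% to 0.0335% of the hippocampal signal and 0.0546% to 0.0771% of microglial counts, was left out. The microglial library totals were 8068020 to 14217100. Hippocampal depth is not given and was estimated only roughly from the commonest low value.

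Members and lists were chosen with earlier results of these data known. All 38 members are named. Values in every sample are given for up to 3 tested members with the smallest p in each role and tissue, for any member at 0 in a whole group, and for others said to be chosen after their values were seen. RefSeq windows were found for 31 of 38 members. Antisense overlap was read from GENCODE. Alternatives were the normalization, the filter, the pseudocount, the test, a replicate block and leaving out each library.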

Additional observations from a re-analysis of the deposited data

How the results depend on the processing

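No member passed the threshold under any alternative tried in either tissue. The hippocampal median log2 change ran from -0.10 to -0.01 as each library was left out, and the number of members with a higher mean from 13 to 18. In microglia the median ran from -0.17 to 0.39 and the number from 7 to 11. With no filter on low counts, 15 microglial members of 29 tested had a higher mean. Over all genes, calls went from 0 to 1 in the hippocampus without limma's trend or without replicate 1 at 6 months, and in microglia from 0 to 140 with DESeq2's Wald test and to 55 without replicate 3 at 24 months. The cause was not tested.

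The log2 changes of Rims2 (-3.30 to -2.15), Unc13b (-2.19 to -1.50) and Vamp1 (-0.75 to -0.41) kept their sign as each hippocampal library was left out. With a pseudocount of 0.5 or 5 they were -3.25 and -1.68 for Rims2, -1.96 and -1.43 for Unc13b and -0.56 and -0.55 for Vamp1. Rescaling the hippocampus to equal sums gave 0.0044 for Syt5, 0.0047 for Unc13a and 0.0033 for Vamp2, and quantile scaling -0.0023 for Syngr1. In microglia Syt3 was 0.0021 with DESeq2's size factors and 0.0059 with its Wald test, and Syngr1 0.0013 with a length offset. Without replicate 1 of both ages, Syt11 was -0.38, Sypl 0.21, Rab3a -0.60, Synj1 0.61, Stx1a -4.29 and Syp 2.06.

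In microglia Unc13a ran from -5.81 to -0.0884, Unc13b from 0.0532 to 6.61, Sv2a from -2.67 to -1.40 and Vamp1 from 0.68 to 1.72 as 1 library was left out, with no turn of sign. Leaving out 1 library turned these signs. In the hippocampus the ranges were -2.85 to 0.23 for Amph, -0.47 to 0.0308 for Bsn, -0.0252 to 0.32 for Pclo, -0.26 to 0.0092 for Rph3a, -0.34 to 0.0141 for Snap91, -0.0151 to 0.13 for Syn1, -0.11 to 0.0731 for Syngr1, -0.30 to 0.0369 for Synj1, -0.21 to 0.0653 for Synpr, -0.35 to 0.30 for Sypl, -1.08 to 0.11 for Syt2, -0.13 to 0.14 for Syt5, -0.21 to 0.34 for Unc13a and -0.0634 to 0.0883 for Vamp2. In microglia they were -0.17 to 1.20 for Dmxl2, -0.29 to 0.38 for Rab3a, -3.72 to 2.20 for Stx1a, -0.35 to 0.0143 for Syngr1, -1.11 to 0.38 for Synj1, -1.73 to 2.56 for Syp, -0.62 to 0.98 for Syt11, -0.67 to 7.77 for Syt3 and -0.18 to 0.56 for Vamp2. For ratios they were -1.09 to 0.35 for Slc17a6 to Slc17a7, -0.19 to 0.16 for Sv2b to Sv2a and -0.26 to 0.32 for Sypl to Syp.

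Same-numbered libraries did not deviate together (correlations of 0.0117, 0.00941 and 0.0142 in the hippocampus and 0.0649, 0.0117 and -0.0271 in microglia), so the numbers were not taken as pairs. With a replicate block 0 members were called in both tissues, the medians were -0.07 and 0.13, and in microglia Syt11 was -0.0197, Stx1a -2.92, Syp 0.74 and Syt3 1.90. Depth limits the rare members, and 3 libraries a group limit every comparison.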
